A study of Mus musculus with 2 samples.

Results

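Natural killer (NK) cells of mouse blood were described from single-cell RNA sequencing of blood mononuclear cells. A barcode, the tag of 1 droplet, was taken as an NK cell when its UMIs (unique molecular identifiers, 1 for each captured RNA molecule) summed to at least 3 over 6 NK receptor genes: Ncr1, Klrb1c, Klre1, Klra8, Klra4 and Klra9. At most 1 UMI was allowed over the T cell genes Cd3d, Cd3e and Cd3g, at most 1 over the B cell genes Cd79a, Cd79b and Ms4a1, and at most 1 over the myeloid genes Lyz2 and Csf1r. Of 9415 barcodes that passed the quality filters (at least 800 UMIs, at least 200 genes, at most 10% mitochondrial UMIs), 1010 passed this gate: 177 of 4190 in the mutant library and 833 of 5225 in the wildtype library. The cells were thus chosen by their own UMI counts of these 6 genes and 8 exclusion genes, whose values below are a description.

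The mutant mice (MvkV377I/del91) were compound heterozygotes for Mvk, the mevalonate kinase gene, with a V377I and a del91 allele, and the comparison animals were wildtype (Mvk+/+). All were female C57Bl/6 mice of 10 weeks. Blood of 3 mice per genotype was pooled, taken over Ficoll, cleared of red cells by lysis, and sorted for live cells without the red cell antigen Ter119, and each pool became 1 library made with 10x Genomics 3' v2 chemistry with 2000 cells targeted. Genotype, mouse pool and library therefore coincide, and their effects cannot be told apart. No test could be made, and every interval below is an exact 95% interval that covers counting error only. It treats UMIs as independent and leaves out the spread among barcodes and mice.

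NK cells are innate lymphocytes that kill stressed or infected cells with granzymes and perforin and that release chemokines and interferon gamma. Their activity is set by the balance of activating receptors such as NKp46 (Ncr1) and NK1.1 (Klrb1c) with inhibitory receptors of the Ly49 (Klra) and NKG2A (Klrc1) families that read MHC class I. In the mouse they mature from Cd27-bearing cells to Cd11b-bearing (Itgam) cells, and part of the mature cells carry the surface protein Ly6C, encoded by Ly6c2.

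In all, 14513059 UMIs were deposited for the mutant and 15385199 for the wildtype library. The NK barcodes held 380953 UMIs in the mutant library, with a median of 1971 per barcode, and 1529533 in the wildtype library, with a median of 1646. Mitochondrial genes took 1.94% of the mutant and 1.89% of the wildtype NK UMIs. Of the kept barcodes, 28 tags occurred in both libraries, and 0 of the NK barcodes did. The doublet scores marked 1 mutant and 3 wildtype NK barcodes. Mvk itself had 0 UMIs in mutant and 1 in wildtype NK barcodes, too few to check the genotype.

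The NK label was checked against genes outside the gate, which were high in these barcodes. Gzma, a granzyme of the killing granule, had at least 1 UMI in 98.3% of mutant and 99.6% of wildtype NK barcodes. B cells, which should lack it, had a Gzma UMI in 8.03% of mutant and 31.4% of wildtype barcodes at median depths of 1574 and 1573 UMIs. Gzma stood at 15288 CPM (a gene's share of the summed NK UMIs, scaled to counts per a common total) in the mutant library and at 16920 CPM in the wildtype library. The granule membrane gene Nkg7 was at 6460 CPM in mutant and 6728 CPM in wildtype NK barcodes. Markers of other cells were low but present: the summed T cell list stood at 339 CPM in mutant and 364 CPM in wildtype NK barcodes, the B cell list at 349 and 274 CPM, and the monocyte list at 391 and 286 CPM, in the same order. In free RNA, measured in barcodes with at most 20 UMIs, these lists stood at 2428, 4971 and 1244 CPM in the mutant and 2931, 3680 and 816 CPM in the wildtype library. All 10 T cell and all 8 B cell markers had at least 1 UMI in both sets of NK barcodes. Csf1r was at 0 in the mutant set, and Cd14 and Fn1 were at 0 in the wildtype set. The T cell, B cell and monocyte lists include the 8 exclusion genes, Csf1r among them, which the gate itself holds low. Their low sums are thus partly fixed by the gate and are no outside check. Much of the monocyte sum was Ccr2, also listed here as an early NK gene. Among NK barcodes without a Ly6c2 UMI, Ccr2 stood at 278 CPM in mutant and 248 CPM in wildtype ones. The whole monocyte list stood there at 421.5 and 322 CPM. Of 8 markers of other innate lymphoid cells, 7 were seen in mutant and 8 in wildtype NK barcodes, at summed levels of 105 and 101 CPM, and the residency marker Itga1 was at 0 in the mutant set.

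At the edge of the gate, 2 mutant and 13 wildtype barcodes had exactly 3 NK receptor UMIs, and 1 mutant and 7 wildtype barcodes had exactly 2 and met the other limits. Those with 3 held Gzma at 7527 CPM in the mutant and 14204 CPM in the wildtype library, and those with 2 held it at 0 CPM in the mutant and 9077 CPM in the wildtype library. Another 56 mutant and 188 wildtype barcodes reached 3 NK receptor UMIs but were left out by the exclusion genes, 42 and 155 of them by the Cd3 genes. Of barcodes marked by B cell genes, which should hold no NK receptor RNA, 0.760% of mutant and 2.66% of wildtype ones reached 3 NK receptor UMIs.

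NK barcodes were scarcer in the mutant library, and the shortfall was larger among those with Ly6c2 RNA than among those without. They made up 4.22% (3.64 to 4.88) of the mutant and 15.9% (14.96 to 17.0) of the wildtype barcodes, a ratio of 0.265 (0.224 to 0.312). With all 3 exclusion sums at 0 the ratio was 0.197. The filters that set the total removed unlike numbers of barcodes. Of barcodes with at least 800 UMIs, 318 mutant and 34 wildtype ones failed the other quality filters, and 0 of these met the NK gate. Another 1216 mutant and 591 wildtype barcodes had at least 300 but fewer than 800 UMIs, of which 10 and 21 met the gate. At least 1 Ly6c2 UMI was found in 39 of 177 mutant NK barcodes (22.03%, 16.2 to 28.9) and in 398 of 833 wildtype ones (47.8%, 44.3 to 51.2), a ratio of 0.461 (0.323 to 0.642). After every gated barcode was thinned to 1000 UMIs the shares were 19.3% and 40.1%, again mutant before wildtype, with a ratio of 0.482. Ly6c2-positive NK cells were 0.931% of all mutant and 7.62% of all wildtype barcodes, a ratio of 0.122 (0.0856 to 0.170). Ly6c2-negative NK cells were 3.29% of mutant and 8.33% of wildtype barcodes, a ratio of 0.396 (0.324 to 0.480). The intervals of these ratios do not overlap. Fewer NK cells and more of other cells cannot be told apart in such shares.

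The Ly6c2 share in other classes was set beside this. B cells, read here as background, had a Ly6c2 UMI in 4.63% of mutant and 6.24% of wildtype barcodes. T cells had one in 19.5% of mutant and 26.1% of wildtype barcodes, and monocytes in 31.8% of mutant and 29.8% of wildtype barcodes. Ly6c2 in free RNA stood at 162 CPM in the mutant and 321 CPM in the wildtype library, and its part in the NK difference was not tested beyond the alternatives given in the closing section. Within Ly6c2-positive NK barcodes, which the gene itself chose, Ly6c2 stood at 1324 CPM in the mutant and 1700 CPM in the wildtype library.

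**Figure D1:**
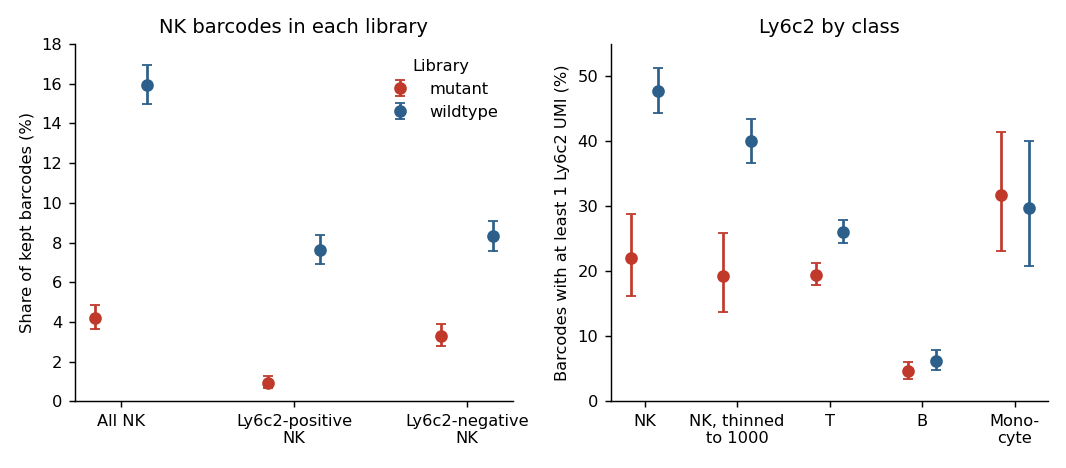
Left: NK barcodes as a percent of kept barcodes in the mutant (red) and wildtype (blue) library, for all NK, Ly6c2-positive NK and Ly6c2-negative NK, with exact 95% counting intervals. Right: percent of barcodes with at least 1 Ly6c2 UMI in NK (all UMIs, and thinned to 1000), T, B and monocyte barcodes. The mutant NK points, 4.22% of barcodes and 22.03% with Ly6c2, lie below the wildtype points, 15.9% and 47.8%.

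Because Ly6c2, Gzmb and Cxcr4 carry the differences described here and Ncr1 helps to define the cells, the 250 bases before the start of each gene are shown, 5' to 3' on the gene's strand, from RefSeq on build GRCm38.p6: Ly6c2 at chr15:75111972-75112221 (minus strand), Gzmb at chr14:56262335-56262584 (minus), Ncr1 at chr7:4337465-4337714 (plus) and Cxcr4 at chr1:128592300-128592549 (minus). Capitals mark matches to TGTGGT, the core of Runx sites, or TCACAC, the core of T-box sites, on either strand (ACCACA and GTGTGA on the other).
Ly6c2: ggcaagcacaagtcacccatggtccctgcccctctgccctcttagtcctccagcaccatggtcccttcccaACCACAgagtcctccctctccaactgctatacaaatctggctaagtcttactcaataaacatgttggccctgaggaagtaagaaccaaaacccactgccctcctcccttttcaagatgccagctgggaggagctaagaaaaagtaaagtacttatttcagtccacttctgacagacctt
Gzmb: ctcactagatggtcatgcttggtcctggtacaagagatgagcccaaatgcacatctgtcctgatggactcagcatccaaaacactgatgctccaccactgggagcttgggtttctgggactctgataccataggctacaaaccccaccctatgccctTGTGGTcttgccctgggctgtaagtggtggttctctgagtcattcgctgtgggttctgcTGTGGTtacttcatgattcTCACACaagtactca
Ncr1: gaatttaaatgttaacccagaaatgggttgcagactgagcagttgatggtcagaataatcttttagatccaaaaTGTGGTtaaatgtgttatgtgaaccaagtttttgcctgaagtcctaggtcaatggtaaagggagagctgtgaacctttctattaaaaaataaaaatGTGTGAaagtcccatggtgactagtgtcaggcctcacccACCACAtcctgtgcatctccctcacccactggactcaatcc
Cxcr4: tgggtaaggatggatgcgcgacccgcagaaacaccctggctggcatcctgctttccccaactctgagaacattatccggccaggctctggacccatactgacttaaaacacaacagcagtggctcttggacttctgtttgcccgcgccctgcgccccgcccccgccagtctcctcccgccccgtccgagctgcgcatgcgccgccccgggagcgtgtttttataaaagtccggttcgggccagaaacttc
The Runx letters matched 1 time in Ly6c2, 2 times in Gzmb, 2 times in Ncr1 and 0 times in Cxcr4, and the T-box letters 0, 1, 1 and 0 times. The 2 motifs do not overlap in letters, and 14.2% and 12.2% of 27025 mouse promoter windows of the same length hold the Runx and the T-box letters. A match is a description of the sequence only.

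Most measured genes differed little between mutant and wildtype NK barcodes. The chemokine receptor gene Cxcr4 was higher, chemokine genes of activated NK cells (Ccl3, Ccl4, Xcl1) were lower, as was Ly6c2, while the transcription factors that maintain NK identity differed little. Of 2700 genes measured (at least 100 UMIs over both libraries), 8 (0.296%) were at least 2-fold higher and 21 (0.778%) at least 2-fold lower in the mutant library. The higher ones include the exclusion gene Lyz2 and the lower ones the gate gene Klra9, both of which helped to choose the cells. At 1.5-fold, 53 (1.96%) were higher and 130 (4.81%) lower, and the median log2 ratio was -0.03. Ratios are mutant over wildtype throughout.

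Cxcr4, the receptor for CXCL12 that holds leukocytes in bone marrow, stood at 129 CPM in mutant (49 UMIs in 42 barcodes) and 45.8 CPM in wildtype NK barcodes (70 UMIs in 66 barcodes), a ratio of 2.81 (1.91 to 4.11). It was higher in both strata, at 3.62 (1.83 to 6.85) among Ly6c2-positive and 2.58 (1.57 to 4.23) among Ly6c2-negative barcodes. In T cells Cxcr4 was at 60.9 CPM in the mutant and 62.4 CPM in the wildtype library, a ratio of 0.976 (0.835 to 1.14). B cells had 122 CPM in the mutant and 137 CPM in the wildtype library, a ratio of 0.891 (0.749 to 1.06). Free RNA held Cxcr4 at 129 CPM in the mutant and 102 CPM in the wildtype library, and with the free RNA profile subtracted the NK ratio was 3.14. Whether NK and T cells differ in this ratio was not tested, though the intervals do not overlap. The gene lies at chr1:128588199-128592293 on the minus strand of GRCm38.

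Other genes that were higher in mutant NK barcodes had mostly low levels. Cmtm7, a MARVEL-domain membrane protein gene, was at 173 CPM in mutant and 75.8 CPM in wildtype NK barcodes, a ratio of 2.28 (1.66 to 3.12). The scaffold gene Limd1 was at 99.7 CPM in the mutant and 46.4 CPM in the wildtype set, a ratio of 2.15 (1.41 to 3.23). Hspa8, a constitutive chaperone, was at 2011 CPM in the mutant and 1410 CPM in the wildtype set, a ratio of 1.43 (1.31 to 1.55), and T cells showed 1.16. Ctla2a, a cathepsin inhibitor of early NK and T cells, was at 373 CPM in mutant and 233 CPM in wildtype NK barcodes, a ratio of 1.60 (1.31 to 1.95). Ctla2a was also higher in mutant B cells (2.29), in mutant monocytes (7.40) and in free RNA (359 CPM in the mutant and 195 CPM in the wildtype library). Among Ly6c2-positive NK barcodes alone its ratio was 1.20 (0.674 to 2.004). The remaining genes named by the same rule were the RNA-binding protein genes Pcbp1 (1.78) and Tardbp (1.84), the interferon-induced Ifi27l2a (1.96), the glycolytic enzyme gene Gpi1 (1.66) and Ivns1abp (1.89).

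Chemokine genes were lower. Ccl4, the MIP-1beta chemokine that NK cells release on activation, was at 1654 CPM in mutant and 2549 CPM in wildtype NK barcodes, a ratio of 0.649 (0.595 to 0.706). Ccl3, the MIP-1alpha gene that lies beside it (chr11:83647844-83649355, with Ccl4 at chr11:83662584-83664683, GRCm38), was at 289 CPM in the mutant and 510 CPM in the wildtype set, a ratio of 0.566 (0.460 to 0.692). Xcl1, which draws cross-presenting dendritic cells, was at 202 CPM in the mutant and 325 CPM in the wildtype set, a ratio of 0.622 (0.483 to 0.792). Ccl5 went the other way, at 33618 CPM in the mutant and 29172 CPM in the wildtype set, a ratio of 1.15 (1.13 to 1.18). Of 9 measured genes of the cytokine and chemokine list (17 in all), 0 were at least 1.5-fold higher and 4 lower, the fourth being Ifng, the interferon gamma gene, at 49.9 CPM in mutant and 80.4 CPM in wildtype NK barcodes (0.620, 0.361 to 1.01). The list's median log2 ratio was -0.37. These chemokine genes were also scarcer in mutant free RNA, where Ccl4 stood at 185 CPM against 584 CPM in wildtype free RNA, and after subtraction its NK ratio was 0.656.

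Ccl3 and Ccl4 were higher in Ly6c2-positive barcodes, whose share of NK barcodes was lower in the mutant library. What part this has in the ratios was not tested. Within Ly6c2-negative barcodes Ccl4 was at 0.669 (0.599 to 0.746) and Ccl3 at 0.581 (0.441 to 0.754). Within Ly6c2-positive barcodes they were at 0.813 (0.706 to 0.933) and 0.732 (0.518 to 1.01). Both genes were thus below 1 in each stratum, with the Ccl3 interval reaching 1 among Ly6c2-positive barcodes. Ccl5 was at 1.18 (1.15 to 1.20) in the negative and 1.04 (0.997 to 1.08) in the positive stratum.

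Of 13 measured genes of the killing granule list 11 had ratios below 1 and 2 above, namely Serpinb6b, a serpin gene (1.34, 1.11 to 1.60), and the chymase gene Cma1 (1.01, 0.855 to 1.18). Gzmb, the granzyme that cleaves caspases, was at 1228 CPM in mutant and 1717 CPM in wildtype NK barcodes, a ratio of 0.716 (0.647 to 0.790). Gzma was at 0.904 (0.878 to 0.9297) and the perforin gene Prf1, at 247 CPM in the mutant and 277 CPM in the wildtype set, at 0.892 (0.706 to 1.12). Fasl, the death ligand gene, was at 236 CPM in the mutant and 390 CPM in the wildtype set, a ratio of 0.605 (0.479 to 0.757), and was the 1 gene of this list past 1.5-fold. That list's median log2 ratio was -0.18. Eomes, a T-box factor of NK identity, was at 231 CPM in mutant and 237 CPM in wildtype NK barcodes, and Tbx21, the T-bet gene, at 129 CPM in the mutant and 145 CPM in the wildtype set. Of 17 measured transcription factor genes 0 passed 1.5-fold, with a median of -0.05.

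Receptor genes leaned below 1. All 12 measured genes of the NKG2 and Nkrp1 list had ratios under 1 (Cd160, at -0.01 on the log2 scale, passes above 1 when ratios are scaled by their median), with a median log2 of -0.24 against -0.03 over all genes, and 1 was at least 1.5-fold lower. That was Slamf7, an activating SLAM receptor gene, at 91.9 CPM in mutant and 156 CPM in wildtype NK barcodes. Klrd1, the CD94 partner of the NKG2 receptors, was at 1297 CPM in mutant and 1515 CPM in wildtype NK barcodes, a ratio of 0.856 (0.775 to 0.943). The gate genes, which chose the cells, ranged from Klre1 (0.929) to Klra9 (0.446), and Ncr1 was at 869 CPM in the mutant and 1190 CPM in the wildtype set. Of 3 measured Ly49 genes outside the gate, Klra7 (1.25) and Klra3 (1.21) were higher in the mutant set and 1 was below 1. Reads of near-identical Klra genes may be split between members, so the single values are uncertain.

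Genes of early and late maturation did not part the libraries clearly. Of 13 measured early genes 10 had ratios above 1 and 3 below, with a median log2 of 0.20. At least 1.5-fold higher were 2: Ctla2a and Thy1, a surface glycoprotein gene, at 144 CPM in mutant and 81.7 CPM in wildtype NK barcodes. At least 1.5-fold lower was 1, the chemokine gene Xcl1, which is also on this list. Among Ly6c2-positive barcodes alone the median of the early list was -0.32. Cd27 itself was at 86.6 CPM in the mutant and 79.1 CPM in the wildtype set, a ratio of 1.10 (0.722 to 1.62). Of 18 measured late genes 0 passed 1.5-fold, with a median of -0.08, and Itgam was at 108 CPM in the mutant and 122 CPM in the wildtype set. S1pr5, the sphingosine receptor that lets NK cells leave the marrow, was at 115 CPM in mutant and 169 CPM in wildtype NK barcodes, a ratio of 0.685 (0.486 to 0.946). Rgs1, a brake on chemokine receptor signalling, was at 396 CPM in the mutant and 644 CPM in the wildtype set, a ratio of 0.616 (0.515 to 0.731).

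Other genes lower in mutant NK barcodes included Tnfrsf9, the costimulatory receptor 4-1BB, at 84.0 CPM in the mutant and 194 CPM in the wildtype set, a ratio of 0.433 (0.291 to 0.624). Kcnj8, a potassium channel gene, had 9 UMIs in mutant and 118 UMIs in wildtype NK barcodes, or 23.6 and 77.1 CPM, a ratio of 0.306 (0.137 to 0.601). Bcl2a1b, a survival gene of the Bcl2 family with near-identical copies, was at 0.332 (0.155 to 0.632), and the cold-inducible RNA-binding protein gene Cirbp at 0.521 (0.397 to 0.674). Vopp1 (0.428) and the phosphatase inhibitor gene Ppp1r2 (0.413) rested on 18 and 14 mutant UMIs.

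The mevalonate pathway could not be compared in these cells. Of 30 sterol synthesis and control genes 1 was measured. Type I interferon-stimulated genes had 9 measured members, of which 7 were above 1 and 1 (Ifi27l2a) passed 1.5-fold, with a median of 0.26. Of 19 measured other NK identity genes 17 were below 1 (median -0.16), and of 22 measured trafficking genes 10 were above 1, with 1 (Cxcr4) at least 1.5-fold higher and 2 (Rgs1 and Rgs2) lower. None of the 18 immediate early genes measured (median -0.11) and none of the 9 cell cycle genes (median 0.15) passed 1.5-fold. Of 14 MHC class I genes 1 did, the peptide transporter gene Tap1 at 1.54. Ribosomal protein genes had 72 of 78 members above 1 and 0 past 1.5-fold, with a median of 0.19, and ribosomal genes took 18.9% of mutant and 16.5% of wildtype NK UMIs.

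Haemoglobin RNA marked the mutant library. It made up 4 of the 8 genes at least 2-fold higher, and mutant NK barcodes held a median of 5 haemoglobin UMIs, against 0 in wildtype ones. Hbb-bs stood at 3000 CPM in mutant and 183 CPM in wildtype NK barcodes, and erythroid markers at 50485 CPM in mutant and 3559 CPM in wildtype free RNA. A single mutant NK barcode, without Ly6c2, held 1131 haemoglobin UMIs, while the erythroid markers summed to 2136 UMIs over all mutant NK barcodes. With barcodes of at least 50 haemoglobin UMIs left out, 7 genes were at least 2-fold higher, and Hbb-bt was no longer among them. Lyz2, a monocyte gene among the exclusion genes, was at 110 CPM in the mutant and 51.7 CPM in the wildtype set. The remaining 3 of the 8 genes past 2-fold were Cxcr4, Cmtm7 and Limd1.

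**Figure D2:**
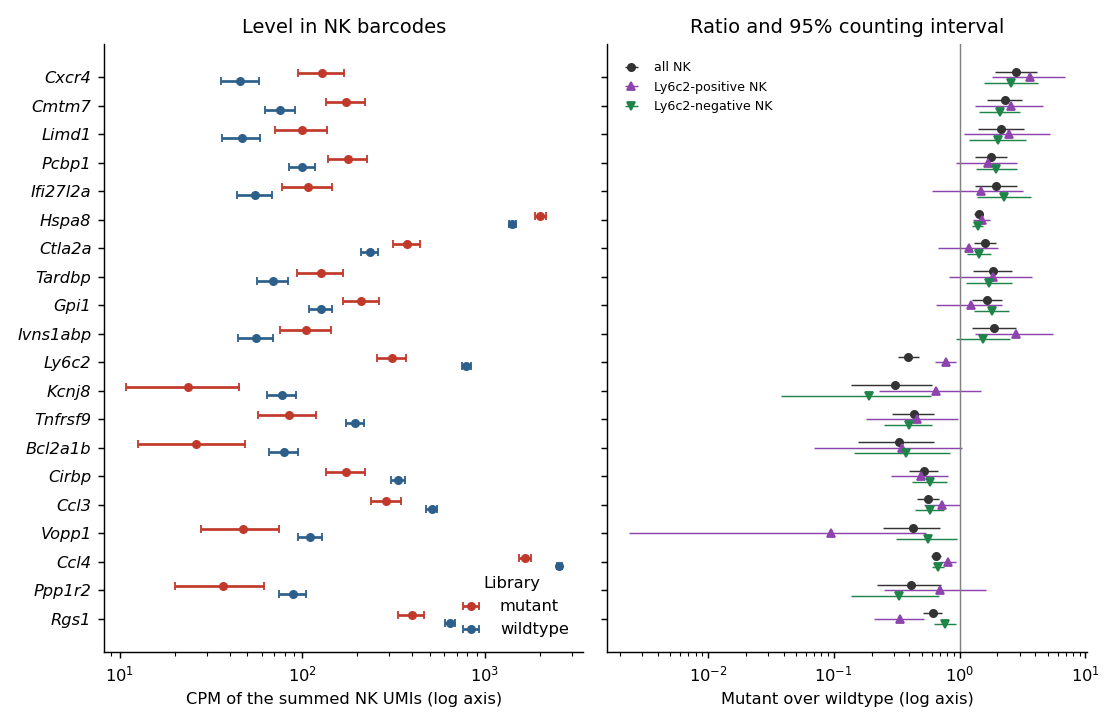
Left: CPM of the summed NK UMIs (log axis) of the 20 rule-named genes in the mutant (red) and wildtype (blue) library, with 95% counting intervals. Right: mutant over wildtype ratio (log axis) over all NK barcodes (black), Ly6c2-positive (purple) and Ly6c2-negative (green) barcodes; Ly6c2 has no ratio in the last. Cxcr4 lies above 1 in all 3 and Ccl4 below 1 in all 3.

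Ly6c2-positive NK barcodes were set against Ly6c2-negative ones within each library. In both libraries they carried more of the effector genes Gzmb, Ccl3 and Ccl4 and of the Ly49 gene Klra3, and less of Ctla2a, Ccr2 and Cd7, genes of earlier NK cells. Ratios are Ly6c2-positive over Ly6c2-negative. Of 1117 genes measured in both libraries (at least 50 UMIs in each), 7 (0.627%) were at least 1.5-fold higher in both and 2 (0.179%) at least 1.5-fold lower in both. In the mutant library alone, with 39 positive barcodes, 63 of 1118 (5.64%) were higher and 89 (7.96%) lower. In the wildtype library alone, 129 of 3920 (3.29%) were higher and 120 (3.06%) lower. Both sides come from the same library, so these values compare barcodes and not mice.

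Gzmb stood at 1896 CPM in Ly6c2-positive and 1025 CPM in Ly6c2-negative mutant barcodes, a ratio of 1.85 (1.52 to 2.24). In the wildtype library it stood at 2147 CPM in positive and 1345 CPM in negative barcodes, a ratio of 1.60 (1.48 to 1.73). Ccl4 was at 2514 CPM in positive and 1391 CPM in negative mutant barcodes (1.81, 1.53 to 2.13), and at 3091 CPM in positive and 2080 CPM in negative wildtype barcodes (1.49, 1.39 to 1.58). Ccl3 had ratios of 1.95 (1.29 to 2.91) in mutant and 1.54 (1.34 to 1.78) in wildtype barcodes. Ccl3 and Ccl4 do not stand for the whole cytokine and chemokine list. Of its measured genes, 3 of 5 were above 1 and 2 below in the mutant library (median log2 0.22). In the wildtype library 3 of 9 were above 1 and 6 below (median log2 -0.19). Klra3, the Ly49C receptor gene, had ratios of 1.59 (1.14 to 2.21) and 1.53 (1.29 to 1.81), and Fgl2, a secreted fibrinogen-like protein gene, 1.83 (1.11 to 2.97) and 1.49 (1.23 to 1.80), mutant before wildtype. With every barcode thinned to 1000 UMIs before the gate, Ccl4 was at 1.07 in mutant and 1.17 in wildtype barcodes and Ccl3 at 4.6 and 1.84. With exclusion sums of 0, the mutant Ccl4 ratio was 2.83 and the mutant Klra3 ratio 0.842.

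Ctla2a stood at 191 CPM in Ly6c2-positive and 428 CPM in Ly6c2-negative mutant barcodes (0.445, 0.252 to 0.742), and at 159 CPM in positive and 297 CPM in negative wildtype barcodes (0.535, 0.424 to 0.672). Ccr2, a receptor for inflammatory chemokines, was at 101 CPM in positive and 278 CPM in negative mutant barcodes (0.364, 0.161 to 0.726), and at 147 CPM in positive and 248 CPM in negative wildtype barcodes (0.592, 0.463 to 0.754). Cd7, an early lymphoid surface gene, had ratios of 0.537 in mutant and 0.698 in wildtype barcodes, and Shisa5, an endoplasmic reticulum protein gene, 0.660 and 0.715. Klra7 (0.615 and 0.837), Tyrobp, the DAP12 adaptor (0.865 and 0.910), Btf3 (0.753 and 0.878), Cd2 (0.634 and 0.865) and Glipr2 (0.437 and 0.691) were also below 1 in the mutant and the wildtype library, though the Cd2 interval in the wildtype and the Glipr2 interval in the mutant library hold 1. Ccl5 was at 29792 CPM in positive and 34787 CPM in negative mutant barcodes (0.856), and at 28685 CPM in positive and 29593 CPM in negative wildtype barcodes (0.969).

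By maturation lists, the wildtype library was the fuller. There 12 of 14 early genes were below 1 (median log2 -0.38; 4 at least 1.5-fold lower: Ccr2, Cd27, Ctla2a and Emb) and 20 of 21 late genes above 1 (median 0.19; 3 at least 1.5-fold higher: Cx3cr1, Gzmb and S100a4), beside a median of 0.01 over all genes. In the mutant library 3 of 8 early genes (Ccr2, Cd7 and Ctla2a) were at least 1.5-fold lower with a median of -0.16, while of 16 late genes 1 (Gzmb) was at least 1.5-fold higher and 1 (Itga4, an integrin gene) lower, with a median of 0.14, beside 0.02 over all genes. Eomes was at 0.784 (0.433 to 1.35) in mutant and 0.787 (0.634 to 0.975) in wildtype barcodes, and Tbx21 at 1.06 (0.504 to 2.08) and 0.973 (0.739 to 1.28). The gate gene Klra9 was at 1.22 (0.885 to 1.66) in the mutant and 1.45 (1.33 to 1.59) in the wildtype library. It does not stand for the 6 gate genes. In the mutant library 3 of them were above 1 and 3 below, with Klra4 and Klra8 at least 1.5-fold lower. In the wildtype library 4 were above 1 and 2 below, and 0 passed 1.5-fold. Klrg1, a marker of late cells, lay on opposite sides of 1, at 0.807 (0.454 to 1.37) in the mutant and 1.38 (1.12 to 1.70) in the wildtype library.

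Of the 10 genes named as higher, 5 belong to the cell cycle list and rest on few barcodes. Stmn1, a microtubule regulator of dividing cells, stood at 651 CPM in Ly6c2-positive and 110 CPM in negative mutant barcodes (5.94, 3.79 to 9.45), and at 292 CPM in positive and 126 CPM in negative wildtype barcodes (2.32, 1.83 to 2.97). The tubulin genes Tuba1b (3.19 and 1.76) and Tubb5 (2.65 and 1.64) and the chromatin genes Hmgb2 (1.92 and 1.39) and Hmgn2 (2.37 and 1.53) were above 1 in the mutant and the wildtype library. At least 3 UMIs over 11 division genes were found in 6 mutant NK barcodes, 3 of them Ly6c2-positive, and in 9 wildtype ones, 6 of them Ly6c2-positive. Their median depths were 3890 and 6224 UMIs, far above those of all NK barcodes, and 0 were scored as doublets. Without these 15 barcodes Stmn1 was at 0.687 (mutant) and 0.840 (wildtype), Hmgb2 at 0.819 and 0.993 and Tubb5 at 1.34 and 0.994, while Gzmb was at 2.20 and 1.65, Ccl4 at 2.04 and 1.53 and Ctla2a at 0.421 and 0.562. After thinning to 1000 UMIs, a Ly6c2 UMI was left in 2 of 6 mutant and 1 of 9 wildtype division-gene barcodes, against 18.8% of the other mutant and 40.4% of the other wildtype NK barcodes. Division-gene barcodes were 3.39% (1.25 to 7.23) of mutant and 1.08% (0.495 to 2.04) of wildtype NK barcodes.

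**Figure D3:**
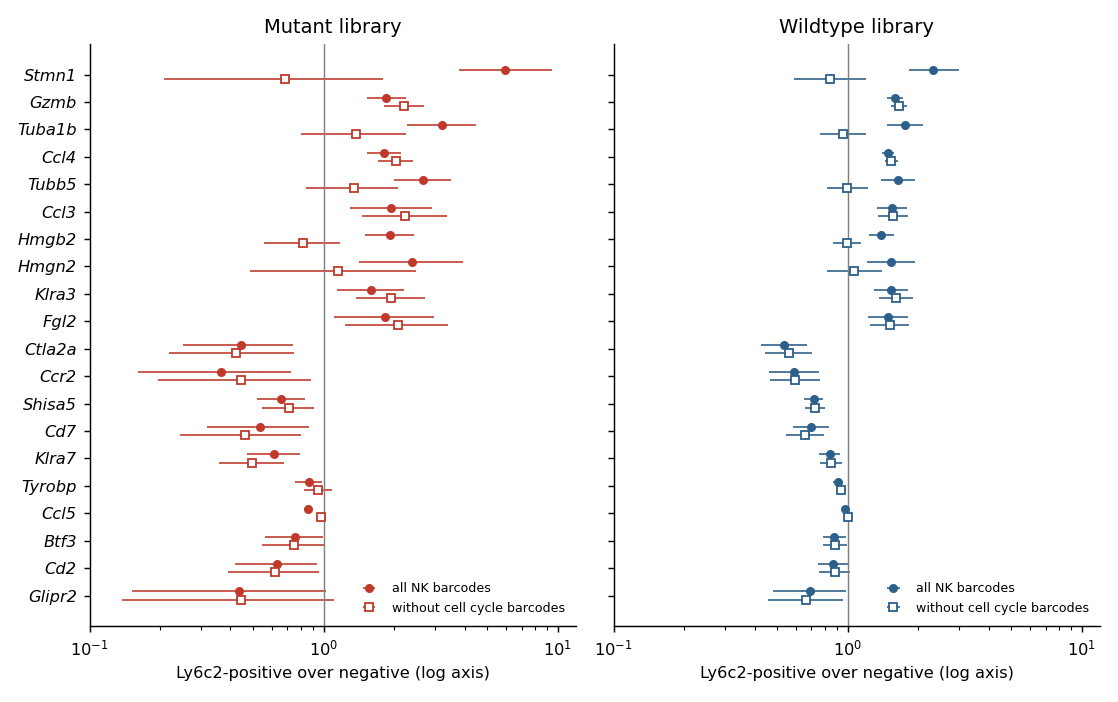
Ly6c2-positive over Ly6c2-negative ratio (log axis, 95% counting interval) of the 20 rule-named genes in the mutant (left) and wildtype (right) library, over all NK barcodes (filled) and without the barcodes with division gene UMIs (open). Stmn1 lies at 0.687 and 0.840 when those barcodes are left out, against 5.94 and 2.32 with them, while Gzmb stays above 1 and Ctla2a below 1.

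The amount of Ly6c2 per barcode did not order the genes in 1 way. In the wildtype library Gzmb was at 1345 CPM with 0 Ly6c2 UMIs, 1890 with 1, 2316 with 2 to 3 and 2204 with 4 or more. Ccl4 had its highest level at 1 UMI in both libraries: along the same 4 steps it stood at 1391, 3623, 2063 and 1578 CPM in the mutant and at 2080, 3638, 3006 and 2673 CPM in the wildtype library. Cd7 declined along the steps in the wildtype library, at 412, 364, 282 and 222 CPM. The mutant steps hold 138, 14, 15 and 10 barcodes and the wildtype steps 435, 124, 145 and 129. A deeper barcode can yield more Ly6c2 UMIs. Median depths were 2003 UMIs in Ly6c2-positive and 1970 in negative mutant barcodes. In the wildtype library positive barcodes were not the deeper ones, with medians of 1592 UMIs in positive and 1724 in negative barcodes.

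**Figure D4:**
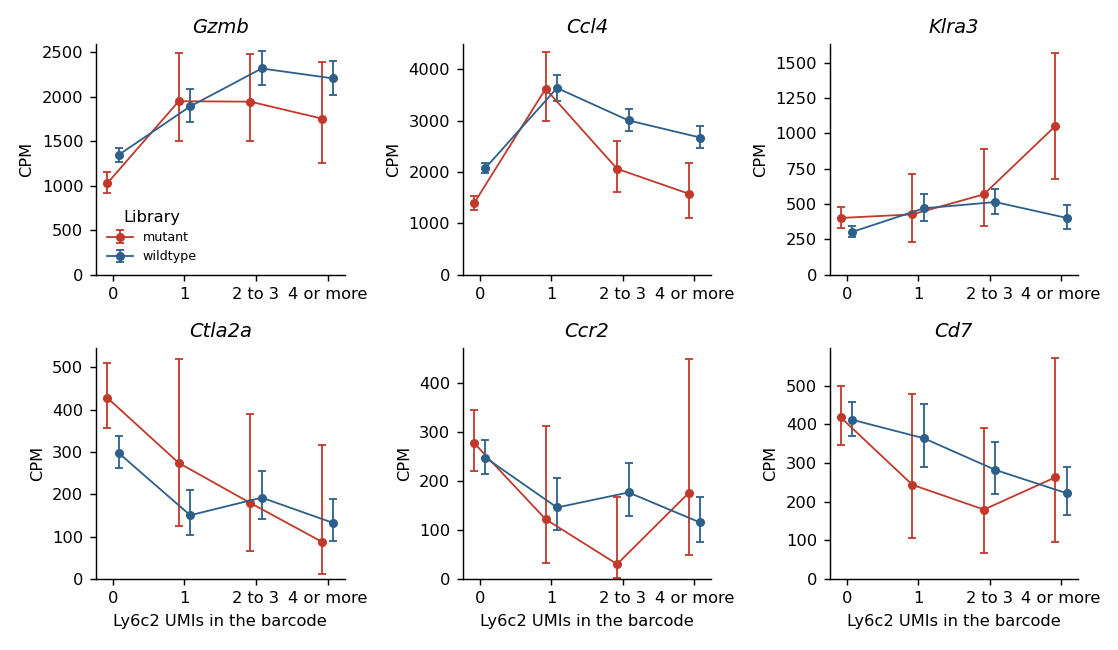
CPM of 6 genes over NK barcodes with 0, 1, 2 to 3 and 4 or more Ly6c2 UMIs in the mutant (red) and wildtype (blue) library, with exact 95% Poisson intervals. Gzmb is lowest at 0 UMIs in both libraries (1025 and 1345 CPM) and Ctla2a is highest there (428 and 297 CPM).

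NK barcodes of 1 library also differed among themselves. Counts thinned to 1000 UMIs were ranked by the Fano factor, the variance over the mean, which is near 1 for counting noise alone. Actb, the beta-actin gene, had 28.5 in mutant and 15.7 in wildtype barcodes, and Ccl4 9.93 and 15.96. Ccl5 (9.34 and 7.97), the nuclear RNA Malat1 (5.65 and 6.64), Gzmb (3.13 and 4.29) and Gzma (3.09 and 3.92) followed, with Tmsb4x, AW112010, Klf2 and Klra3 between 2.11 and 2.72. The tenth of barcodes with most Klra3 held 71.3% of its UMIs in mutant and 68.1% in wildtype NK barcodes. For Ccl4 this share was 60.2% in mutant and 54.2% in wildtype, and for Gzma 18.4% and 18.8%. Counting intervals of genes with high Fano factors, such as Actb and Ccl4, are therefore too narrow for the spread among barcodes.

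A set of NK barcodes with very high Actb was then examined, with a limit chosen after its values were seen: at least 20 Actb UMIs of 1000. It held 30 of 176 mutant (17.0%, 11.8 to 23.4) and 85 of 821 wildtype NK barcodes (10.4%, 8.35 to 12.6), a ratio of 1.65 (1.05 to 2.52). T cells passed the limit in 6.01% of mutant and 3.56% of wildtype barcodes, and B cells in 5.18% of mutant and 4.05% of wildtype barcodes. Another 8 mutant and 40 wildtype NK barcodes held 15 to 19 Actb UMIs and 4 mutant and 19 wildtype ones 20 to 24. Their depth was like that of the rest, with medians of 1896 UMIs in Actb-high and 2016 in other mutant barcodes, and of 1665 UMIs in Actb-high and 1660 in other wildtype barcodes, and 0 were scored as doublets. Ly6c2 was present in 30.0% of Actb-high and 20.5% of other mutant barcodes, and in 43.5% of Actb-high and 48.4% of other wildtype barcodes.

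Spry2, an inhibitor of receptor tyrosine kinase signalling, went with Actb. It stood at 1459 CPM in Actb-high and 202 CPM in other mutant NK barcodes, 7.23-fold (5.22 to 10.1), and at 1350 CPM in Actb-high and 223 CPM in other wildtype NK barcodes, 6.06-fold (5.07 to 7.23). In T cells it was at 55.8 CPM in Actb-high and 4.71 CPM in other mutant barcodes, and at 56.6 CPM in Actb-high and 8.10 CPM in other wildtype barcodes. In B cells it had 3 UMIs in Actb-high and 11 in other mutant barcodes (5.33-fold, 0.955 to 20.2), and 0 in Actb-high and 10 in other wildtype barcodes. Notch2, a receptor gene singled out after its values were seen, rested on few UMIs. It had 11 UMIs in Actb-high and 6 in other mutant NK barcodes (8.43-fold, 2.86 to 27.8). In the wildtype library it had 24 UMIs in Actb-high and 27 in other NK barcodes (7.36-fold, 4.06 to 13.2). The phosphatase gene Ptpn22 (2.39 and 2.78), the G protein subunit gene Gnb1 (2.30 and 2.31), the kinase gene Pim1 (3.76 and 1.90) and Pdcd4 (1.85 and 2.39) were above 1, mutant before wildtype. Klrd1 (0.530 and 0.788) and the platelet and leukocyte signalling gene Plek (0.484 and 0.591) were below 1, and Ncr1 (1.11 and 1.06) and Gzma (1.07 and 0.998) differed little. Of 1112 genes measured in both libraries, 12 (1.08%) were at least 1.5-fold higher in both and 9 (0.809%) at least 1.5-fold lower in both. Tubb5 (5.28 and 2.17) was among them, and 3 of the mutant and 2 of the wildtype Actb-high barcodes were division-gene barcodes.

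**Figure D5:**
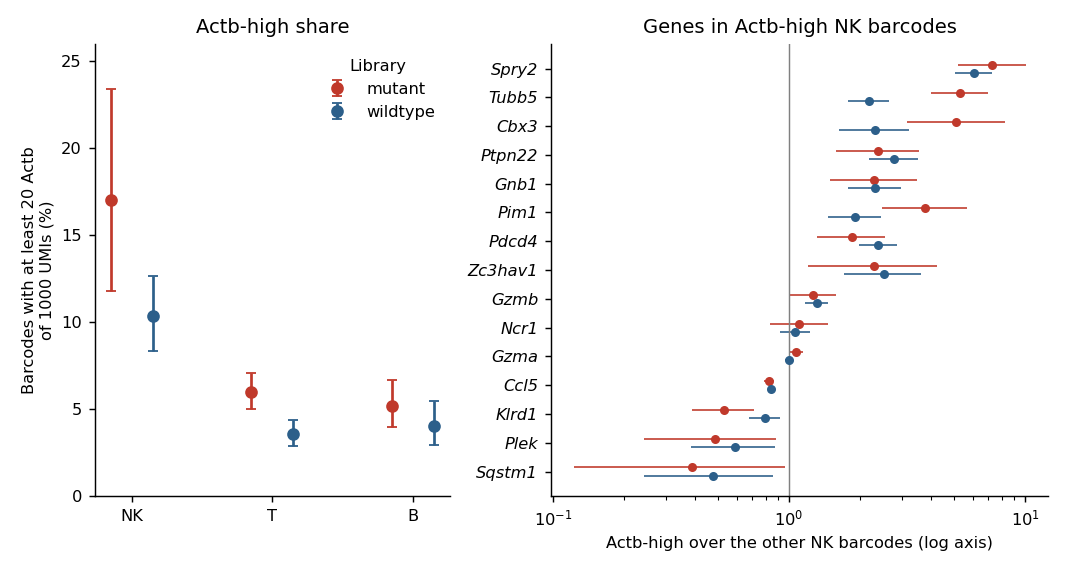
Left: percent of NK, T and B barcodes with at least 20 Actb UMIs after thinning to 1000, in the mutant (red) and wildtype (blue) library, with 95% counting intervals; NK barcodes are at 17.0% and 10.4%. Right: ratio of Actb-high over other NK barcodes (log axis, 95% counting interval) for 15 genes in both libraries, from Spry2 at 7.23 and 6.06 to Sqstm1 at 0.390 and 0.477.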

How the data were processed

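UMI counts for 27998 genes and the full list of 737280 barcodes per library were used as the authors deposited them. The submitters' processing notes name Cell Ranger 2.1.1 and the genome build mm10. How reads on both strands or in near-identical genes (Klra family, Ly6c2 and Ly6c1, Bcl2a1b, haemoglobins) were counted is not given in the sources used here.

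Barcodes were filtered and gated as stated above, and the UMIs of all gated barcodes of a library were added up and scaled to CPM (Python 3.11.15, numpy 2.4.6, scipy 1.17.1, pandas 2.3.3). Shares carry Clopper-Pearson intervals, ratios exact conditional intervals and CPM values exact Poisson intervals, all at 95%, for counting error only; PCR duplicates were already merged as UMIs. Intervals were not adjusted for the number of genes. For list medians 0.5 UMI was added to each sum. Scrublet (scanpy 1.11.5) scored doublets; none were removed, and a score above 0.2 was removed as an alternative. T cells had at least 2 Cd3 UMIs, B cells at least 3 UMIs of the B genes and monocytes at least 3 of the myeloid genes, with at most 1 UMI of each other set.

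Genes were named by rule: 10 higher and 10 lower genes, ranked by how far from 1 the nearer bound of the interval lay (in both libraries for the Ly6c2 split, ranked by the lesser bound, which can hold 1) and the 10 highest Fano factors with a mean of at least 0.2, without ribosomal, mitochondrial and haemoglobin genes and provisional names. List members are named besides. The cells, the 25 lists and the rule were chosen with earlier results of these data known. Chosen after seeing the data were the cell cycle limit (3 UMIs of 11 genes), the Actb limit and its genes, the limit of 50 haemoglobin UMIs, the promoters and motifs, the 1.5-fold count by genotype and the genes shown by Ly6c2 step. Gene coordinates were checked on GRCm38, the assembly of mm10.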

Additional observations from a re-analysis of the deposited data

Results flagged for a closer look

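Of 989 genes compared, 7 had Ly6c2-positive over Ly6c2-negative ratios on opposite sides of 1 in the 2 libraries, with both intervals clear of 1. The difference between the libraries was not tested. The intervals leave out the spread among barcodes, which was large for Actb and Malat1. Rgs1, a regulator of G protein signalling, was at 0.559 in mutant and 1.27 in wildtype barcodes. The kinase adaptor gene Skap1 was at 1.59 in mutant and 0.819 in wildtype barcodes. In the mutant library Actb stood at 11702, 10776, 12615 and 23975 CPM over barcodes with 0, 1, 2 to 3 and 4 or more Ly6c2 UMIs, so its excess lay in the last step, of 10 barcodes. Over all positive barcodes Actb was at 1.27 in mutant and 0.936 in wildtype barcodes, and the actin-binding Tmsb4x at 0.944 in mutant and 1.10 in wildtype barcodes. Cd52, a surface glycoprotein gene, was at 1.23 in mutant and 0.942 in wildtype barcodes. Zfp36l2, an RNA-binding protein gene, was at 0.787 in mutant and 1.17 in wildtype barcodes, and Malat1 at 0.951 in mutant and 1.13 in wildtype barcodes.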

How the results depend on the processing

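No paired analysis was possible because each genotype has 1 library. The NK share ratio was 0.197 with exclusion sums of 0 (which kept 81 mutant and 514 wildtype barcodes) and between 0.257 and 0.286 under the other settings, and the Ly6c2-positive share ratio ran from 0.397 to 0.472. The lowest of these came from thinning before the gate, as for the other thinned values of this section, while thinning after the gate gave 0.482. The thinned shares, the Fano factors and the Actb-high set above used barcodes thinned after the gate. Genes at least 2-fold higher in mutant NK barcodes numbered 4 with exclusion sums of 0, 22 with a minimum of 50 UMIs per gene, 4 in Ly6c2-positive and 5 in Ly6c2-negative barcodes alone; those lower numbered 103, 36 and 5 under the last 3. Genes higher in Ly6c2-positive barcodes of both libraries numbered 2 with exclusion sums of 0, 2 when thinned and 2 with barcodes weighted equally. Those lower numbered 4 with exclusion sums of 0, 5 with at least 2 Ly6c2 UMIs, 1 with a minimum of 100 UMIs and 4 without the barcodes with division gene UMIs. Scaling by the median ratio shifted all log2 ratios by 0.03 and gave 9 higher and 18 lower genes.

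Positive over negative ratios that crossed 1 are given mutant first. When thinned they were Stmn1 0.385 and 0.534, Hmgb2 0.618 and 0.939, Hmgn2 0.750 and 0.893, Tubb5 0.571 and 0.730, wildtype Tuba1b 0.667 and wildtype Ccl5 1.03, with cell cycle medians of -0.64 and -0.22. Without barcodes with division gene UMIs, an exclusion chosen after seeing the data, they were Stmn1 0.687 and 0.840, mutant Hmgb2 0.819, wildtype Hmgb2 0.993, wildtype Tuba1b 0.955, wildtype Tubb5 0.994 and wildtype Ccl5 1.002, with a wildtype cell cycle median of -0.0092. Wildtype Ccl5 was 1.01 with equal weights, and with exclusion sums of 0 mutant Klra3 was 0.842 and Stmn1 0.515. For the crossings under thinning and exclusion sums of 0 the cause was not tested. List medians that crossed 0 besides were those of cytokines and chemokines by Ly6c2 (mutant -0.17 with at least 2 Ly6c2 UMIs, wildtype 0.02 when thinned), and, by genotype, of early genes (-0.32 in Ly6c2-positive barcodes) and of cell cycle genes (-0.01 in Ly6c2-negative barcodes). Besides shares and counts of genes, 866 single-gene ratios and list medians stayed within their counting interval (medians within a set distance) and 84 moved past it. The 39 Ly6c2-positive mutant barcodes limit every split value of that library.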
